A study of Mus musculus with 5 samples.

Results

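The collagen genes of PyMT mouse mammary tumours were described across tumour and stromal cells. They were chosen by name, as every gene symbol made of Col, a number, a and a number, with at least 50 unique molecular identifiers (UMIs, counts of captured transcripts) summed over 5 single-cell libraries. The pattern matched 44 symbols and 40 of them passed. The series as a whole had 24299 genes with a UMI. The 4 genes left out were Col19a1 with 44 UMIs, Col4a3 with 37, Col6a4 with 31 and Col22a1 with 19. The members just above the limit were Col20a1 with 63 UMIs and Col24a1 with 68.

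PyMT mice carry the polyoma virus middle T antigen as a transgene and develop mammary tumours. The sources used here do not state the promoter of the transgene, the number of animals or their age. All libraries came from digested PyMT tumours enriched for viable cells. The libraries fresh 10x 1 and fresh 10x 2 were made with the 10x Genomics 3' v2 droplet system and form the only replicated group. The library called stored 10x was made on the same system from a digest kept overnight at 4 °C, for which the title gives 24 h, until viability had dropped by 20% or more. The library BD 1 was made from fresh tissue with the BD Rhapsody microwell system and its whole transcriptome assay. The library BD 2 was made on the same system, but its labels conflict, since its title says fresh and its files are named for 24 h, so it entered no contrast. Nothing in the labels says that the fresh 10x libraries came from separate mice, so the p-values measure the spread between these libraries, which may be technical.

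Collagens are secreted proteins of the extracellular matrix built from chains that wind into a triple helix. Fibrillar collagens such as types I, III and V form the tensile fibres of connective tissue and are made mainly by fibroblasts. Type IV collagen forms the sheet-like network of basement membranes, under epithelia and around vessels. Type VI collagen forms beaded filaments, and the fibril-associated collagens (types IX, XII, XIV and XVI) lie on the surface of fibrils. Types XV and XVIII are multiplexins of basement membrane zones, type VII anchors epithelia to the stroma, and types XIII, XVII, XXIII and XXV span the cell membrane. Types II, IX, X and XI are best known from cartilage. Dense collagen around mammary tumours is a known feature of their stroma.

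After removal of cells with fewer than 200 genes and of 36 called doublets, 15583 cells were clustered. The libraries held between 29166129 and 59957945 UMIs each, with 8926 to 12474 UMIs in the median cell. The median share of mitochondrial UMIs was 6.14% to 7.17% in the 10x libraries, 15.2% in BD 1 and 19.8% in BD 2. Cells were clustered without the collagen genes and classes were named from markers that are not collagens, so no collagen level defines a class. Names end in -like because the classes rest on markers alone. A mean and SD over libraries spans platforms and storage, so the SD is not a replicate error. The fibroblast-like class had 127 to 362 cells a library, the epithelial-like class 1361 to 2950, the endothelial-like class 13 to 172 and the mural-like class (cells of the vessel wall) 7 to 67. Summed over its 7 markers, the fibroblast list stood at 95.2 to 143 UMIs per 10000 in fibroblast-like cells and at 0.227 to 0.417 in epithelial-like cells. The 3 pairs of 10x libraries shared 1, 1 and 5 barcode sequences, and no other pair shared any. Levels below are UMIs per 10000 UMIs of a class in a library, and lists of 5 values follow the order fresh 10x 1, fresh 10x 2, stored 10x, BD 1, BD 2. UMI counts do not grow with transcript length, but capture can differ between genes and platforms, so each gene was compared across cells and libraries.

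Collagens made up 0.425% to 0.895% of all UMIs in a library. Fibroblast-like cells held 74.0% to 87.7% of a library's collagen UMIs, and collagens were 4.32% to 6.95% of their own UMIs. In epithelial-like cells collagens were 0.0957% to 0.123% of the UMIs, yet these cells were so numerous that they held 10.7% to 20.7% of the collagen UMIs. Of the 1402978 collagen UMIs, the 11 fibrillar genes held 73.7%, the 7 fibril-associated genes 12.2%, the 5 beaded filament genes 6.88% and the 5 basement membrane network genes 4.58%. Col3a1 (365664 UMIs), Col1a1 (295370) and Col1a2 (269968) were the most abundant, followed at a distance by Col9a1 (76197). By mean level over the libraries, 23 of the 40 members were highest in fibroblast-like cells. The other 17 included genes of vessels and of the tumour epithelium.

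**Figure D1:**
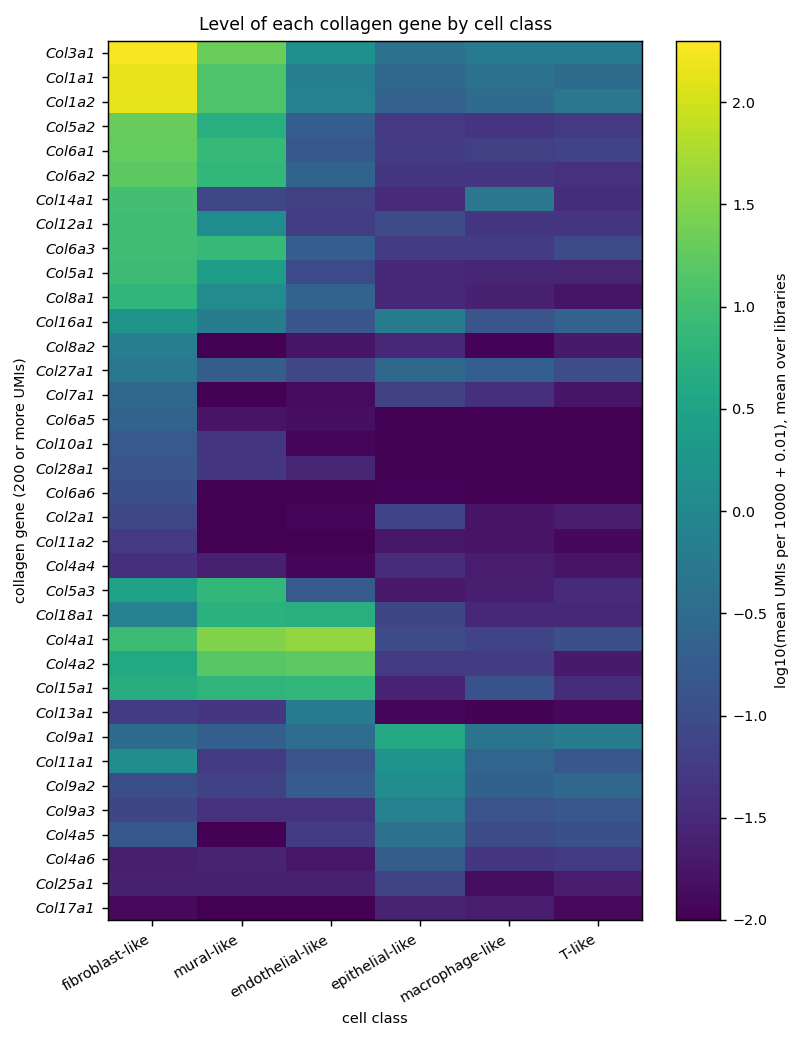
Mean level of the 36 collagen genes with 200 or more UMIs in 6 cell classes. Colour is log10 of the mean over libraries of UMIs per 10000 plus 0.01, from dark (absent) to yellow (high), and classes with under 10 cells in a library were left out of that library. The upper rows are highest in fibroblast-like cells, a middle block from Col5a3 to Col13a1 in mural-like or endothelial-like cells, and the lowest rows from Col9a1 to Col17a1 in epithelial-like cells.

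Type I and type III collagen, the bulk of stromal fibres, were fibroblast genes in every library. Col3a1, which encodes the single chain of type III, stood at 167, 157, 175, 205 and 187 in fibroblast-like cells, the highest class in 5 of 5 libraries. Counting error was small at this depth, with an exact 95% Poisson interval of 165.2 to 168.3 for Col3a1 in fresh 10x 1. The α1 chain gene of type I, Col1a1, stood at 136, 122, 65.2, 190 and 194, and the α2 chain gene Col1a2 at 145, 132, 97.5, 151 and 154. Col1a1 was thus lowest in stored 10x and highest on BD Rhapsody, while Col3a1 varied little. Mural-like cells came second for each of the 3 genes. Their Col3a1 level was 21.3 ± 2.42 and their Col1a1 level 13.0 ± 4.31 (mean and SD of the 4 libraries with at least 10 such cells), and Col1a1 in fibroblast-like cells was 10.9 times its mural-like mean. The type V genes Col5a1 and Col5a2 also had fibroblast-like cells first and mural-like cells second. Col5a2 stood at 24.0, 21.9, 14.6, 19.7 and 20.9 in fibroblast-like cells and Col5a1 at 7.95, 7.78, 6.91, 11.9 and 10.4.

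The ratio between chains of the same trimer depended on the library. Col1a1 had 0.937, 0.921, 0.668, 1.26 and 1.26 UMIs per Col1a2 UMI in fibroblast-like cells. In mural-like cells, other producers of type I collagen, the ratios were 0.856, 1.07, 0.772, 1.23 and 1.17. In both classes stored 10x was the lowest library and the BD Rhapsody libraries were the highest. Both differences concern a ratio of 2 genes within a library and do not tell which of them changed.

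Type VI collagen, whose chains assemble into beaded filaments around cells, was shared by fibroblast-like and mural-like cells. Col6a1 stood at 21.1, 17.5, 13.7, 22.3 and 22.3 in fibroblast-like cells and Col6a2 at 12.1, 9.19, 11.4, 24.2 and 25.2. Col6a3 stood at 13.0, 8.86, 8.22, 8.65 and 8.43, and its mural-like mean of 7.58 ± 1.79 (SD, n = 4) lay within the fibroblast spread of 9.43 ± 2.00 (SD, n = 5). Col6a1 and Col6a2 are neighbours on the same strand of chromosome 10 in GRCm38, at chr10:76708792-76726044 and chr10:76595756-76623630, with no protein-coding gene between them. Their ratio in fibroblast-like cells was 1.74, 1.90 and 1.20 on 10x and 0.923 and 0.885 on BD Rhapsody, so the gene that was more abundant on 10x was the less abundant on BD Rhapsody. The minor chains Col6a5 (0.262, 0.159, 0.248, 0.246 and 0.213) and Col6a6 (0.0190, 0.0463, 0.115, 0.170 and 0.160) were mostly in fibroblast-like cells, which held 97.2% and 89.4% of their UMIs. With clusters at resolution 2.0, Col6a6 was highest in dendritic-like cells, at a mean of 0.108.

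Among the other fibroblast collagens were the fibril-associated Col12a1 and Col14a1 and the network-forming Col8a1 and Col8a2. Col12a1 stood at 17.1, 17.9, 3.74, 5.10 and 4.41, so both fresh 10x libraries were over 3 times as high as any other library. Col8a1 (9.14, 8.51, 5.22, 5.65 and 4.71) was also highest in the fresh 10x libraries, and Col8a2 (0.893, 0.849, 0.255, 0.799 and 0.601) was lowest in stored 10x. Col14a1 went the other way, with 5.73, 7.78, 8.85, 15.7 and 13.9. Col7a1, the anchoring fibril gene, stood at 0.611, 0.412, 0.110, 0.105 and 0.0798, and Col28a1, a minor collagen with von Willebrand domains, at 0.0494, 0.0360, 0.138, 0.184 and 0.223. The fibrillar Col27a1 was even across libraries, at 0.574, 0.535, 0.473, 0.471 and 0.548. Col16a1 was even too, at 1.86, 1.66, 1.63, 1.72 and 1.52. For Col7a1, Col16a1 and Col27a1 the epithelial-like class, being larger, still held 70.7%, 76.1% and 77.2% of the UMIs. In fresh 10x 2 the epithelial-like level of Col27a1 (0.592) was above the fibroblast-like one. Col23a1 (197 UMIs), Col26a1 (120) and Col24a1 (68) were also highest in fibroblast-like cells but rest on few counts.

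Outside fibroblast-like and mural-like cells, type I and type III collagen genes were seen at low levels in the epithelial-like, macrophage-like and T-like classes. Lymphocytes, which are not known to make them, give the level to read those against. Col3a1 in epithelial-like cells was 0.178%, 0.139%, 0.321%, 0.258% and 0.220% of its fibroblast-like level. In T-like cells it was 0.387%, 0.157%, 0.628%, 0.327% and 0.218%, and in macrophage-like cells 0.199% to 0.729%. Epithelial-like Col1a1 was 0.138% to 0.338% of the fibroblast level, inside the T-like range of 0.122% to 0.652%. The median T-like cell had 2455 to 5774 UMIs and the median epithelial-like cell 10862 to 14005.5. At 2000 UMIs per cell, Col3a1 was seen in 4.36% to 10.9% of epithelial-like cells and in 2.98% to 21.2% of T-like cells, against 98.6% to 99.8% of fibroblast-like cells. The epithelial-like Col3a1 level, as a share of the fibroblast-like one, was below the T-like share in 4 libraries and at 0.220% against 0.218% in BD 2, so it was not set apart from the level in lymphocytes. In the 1024 to 2237 epithelial-like cells a library with no UMI of any fibroblast marker, Col3a1 stood at 0.253, 0.216, 0.539, 0.520 and 0.414. That was close to the level in all epithelial-like cells (0.297, 0.219, 0.561, 0.528 and 0.411).

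Col14a1 stood apart from this pattern in macrophage-like cells. Its level there was 5.78%, 3.69%, 6.37%, 4.44% and 4.68% of the fibroblast-like level, against 0.192% to 0.363% in epithelial-like cells and at most 0.683% in T-like cells. In UMIs per 10000 the macrophage-like values were 0.331, 0.287, 0.564, 0.697 and 0.648. The same macrophage-like cells had Col1a1 at 0.151% to 0.622% of its fibroblast level. Their summed fibroblast markers stood at 0.230 to 0.999, against 0.185 to 0.625 in T-like cells. At 2000 UMIs per cell 6.43% to 12.6% of macrophage-like cells had a Col14a1 UMI. Col15a1 was at 1.42% to 3.57% of its fibroblast level in macrophage-like cells, at 0.247% to 0.636% in epithelial-like cells and at 0% to 1.81% in T-like cells, and in stored 10x the T-like value was above the macrophage-like one (1.79%).

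**Figure D2:**
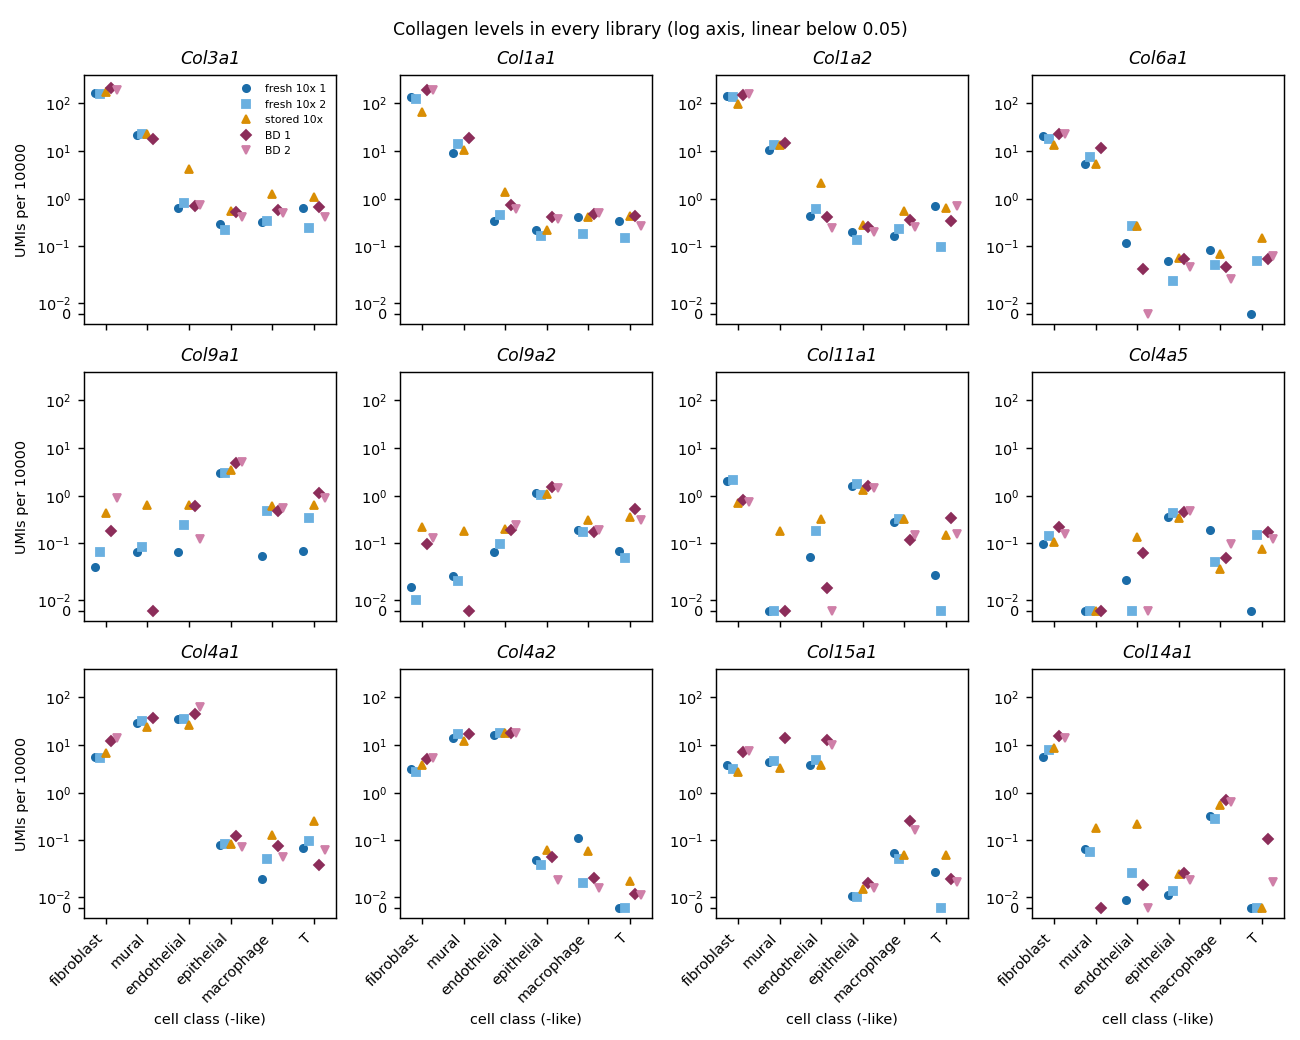
Level of 12 collagen genes in 6 cell classes of each library, in UMIs per 10000 on a log axis that is linear below 0.05. Each point is 1 library, and libraries with under 10 cells of a class are left out. Col3a1, Col1a1, Col1a2 and Col6a1 drop from fibroblast to mural to all other classes, Col9a1, Col9a2 and Col4a5 peak in epithelial cells, Col4a1 and Col4a2 peak in endothelial and mural cells, and Col14a1 has a raised macrophage level.

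The type IV genes Col4a1 and Col4a2 were led by the cells of vessels. They encode the chains of the common type IV network. Col4a1 stood at 34.4, 35.7, 25.9, 44.4 and 62.9 in endothelial-like cells, above every other class in 5 of 5 libraries, although the mean and SD of 40.7 ± 14.1 (n = 5) overlapped those of mural-like cells, 30.6 ± 5.25 (n = 4). Col4a2 was steadier, at 15.9, 17.6, 17.6, 18.0 and 17.6, beside 15.2 ± 2.37 in mural-like cells. In fibroblast-like cells Col4a1 stood at 5.64, 5.32, 6.66, 12.1 and 14.1 and Col4a2 at 3.19, 2.70, 3.78, 5.14 and 5.41. Summed over the 5 libraries, fibroblast-like cells held 53.0% of the Col4a1 UMIs and 51.0% of the Col4a2 UMIs, but this differed between libraries. In fresh 10x 1 they held 1485 of 7465 Col4a1 UMIs and endothelial-like cells 4729, while in BD 1 they held 8206 of 11177 and endothelial-like cells 2087. Epithelial-like levels of Col4a1 lay within the T-like range, at 0.0798, 0.0863, 0.0854, 0.122 and 0.0723, while T-like cells had 0.0401 to 0.25. Those of Col4a2 lay above it, at 0.0261 to 0.0635 against 0 to 0.0250 in T-like cells. Macrophage-like cells had Col4a2 at 0.0191 to 0.110. The genes lie head to head on chromosome 8, with RefSeq start sites 21 bases apart. There were 1.47 to 3.57 Col4a1 UMIs per Col4a2 UMI in endothelial-like cells and 1.88 to 2.13 in mural-like cells.

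By mean level, the multiplexins and Col13a1 were also highest in a class of vessel cells, for Col15a1 the endothelial-like class, which was highest in 3 of 5 libraries. Col15a1 stood at 3.89, 4.74, 3.85, 13.0 and 10.1 in endothelial-like cells, at 3.87, 3.13, 2.76, 7.07 and 7.40 in fibroblast-like cells and at 6.54 ± 4.92 (SD, n = 4) in mural-like cells, 3 levels that overlapped. In all 3 classes the BD Rhapsody libraries were above the 10x libraries. Col18a1, the parent gene of endostatin, was even across libraries and platforms in endothelial-like cells (4.75, 5.20, 4.08, 5.02 and 5.83) and in mural-like cells (5.59 ± 0.764, SD, n = 4), and lower in fibroblast-like cells (0.441, 0.556, 0.866, 1.04 and 1.02). Col13a1, a membrane collagen, stood at 0.908, 0.857, 0.472 and 0.596 in endothelial-like cells of the first 4 libraries. In mural-like cells Col13a1 was at 0.0373 ± 0.0745 (SD, n = 4), no higher than in fibroblast-like cells (0.0464 ± 0.0264, SD, n = 5). In the 13 endothelial-like cells of BD 2 no Col13a1 UMI was seen, which allows a level of up to 0.364 at 3 counts and covers counting error only. The fibrillar Col5a3 was led by mural-like cells, at 5.48, 6.43, 5.71 and 11.0 in the 4 libraries with 10 or more of them, against 2.16, 1.87, 2.98 and 3.87 in fibroblast-like cells of the same libraries. Summed over libraries, fibroblast-like cells still held 78.6% of the Col15a1 UMIs, 88.6% of those of Col5a3 and 32.5% of those of Col18a1. Endothelial-like cells held 14.5% of the Col15a1 UMIs, 32.6% of those of Col18a1 and 68.2% of those of Col13a1.

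The tumour epithelium had a collagen set of its own, led by type IX. Col9a1, Col9a2 and Col9a3 encode the chains of this fibril-associated collagen of cartilage. Col9a1 (chr1:24177589-24252738, GRCm38) stood at 3.0, 2.95, 3.40, 4.92 and 5.06 in epithelial-like cells, which held 96.9% of its UMIs. At 2000 UMIs per cell, 38.8%, 39.4%, 43.4%, 49.8% and 50.1% of epithelial-like cells had a Col9a1 UMI, against 0.936% to 7.92% of T-like cells. Neutrophil-like cells came second, with Col9a1 at 2.40 ± 0.935 and Col9a2 at 0.580 ± 0.388 (SD, n = 3). They were 41 cells in all and carried much epithelial marker RNA. Col9a2 stood at 1.15, 1.03, 1.11, 1.5 and 1.48 and Col9a3 at 0.929, 0.834, 0.887, 0.618 and 0.533, with 95% and 96.6% of their UMIs in epithelial-like cells. Col9a1 and Col9a2 were higher on BD Rhapsody than on 10x, and Col9a3 was lower. There were 3.23, 3.53, 3.83, 7.96 and 9.49 Col9a1 UMIs per Col9a3 UMI. Col25a1, a membrane collagen, stood at 0.0663, 0.0914, 0.0852, 0.0437 and 0.0464 in epithelial-like cells, which held 93.8% of its UMIs. The fibrillar Col11a1 was at 1.62, 1.78, 1.31, 1.58 and 1.44 in epithelial-like cells, with 90.8% of its UMIs there. It was also present in fibroblast-like cells, at 2.01, 2.17, 0.701, 0.821 and 0.753, so the fibroblast-like level was the higher one in both fresh 10x libraries and the epithelial-like level in the other 3.

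Col4a5 and Col4a6, which encode the chains of a second type IV network found under epithelia, were epithelial as well. Col4a5 stood at 0.364, 0.436, 0.349, 0.446 and 0.468 in epithelial-like cells and Col4a6 at 0.172, 0.184, 0.197, 0.166 and 0.173. Epithelial-like cells held 93.2% and 94.4% of their UMIs, while no Col4a5 UMI was seen in mural-like cells. There were 2.12, 2.36, 1.77, 2.68 and 2.71 Col4a5 UMIs per Col4a6 UMI. The mean of Col4a5 in neutrophil-like cells was similar (0.416 ± 0.435, SD, n = 3), but these were 41 cells in all and carried much epithelial marker RNA, and with cells under 500 UMIs or above 20% mitochondrial UMIs removed the epithelial-like class was highest. The genes are divergent neighbours on chromosome X, with RefSeq start sites 1343 bases apart, so the stretch between them faces both. The sequence before each start is shown because this pair, unlike the vessel pair Col4a1 and Col4a2, was led by the epithelium. It comes from RefSeq on GRCm38.p6, reads toward the start site, and has in capitals any match to 1 of 3 promoter motifs found on either strand. The motifs searched were the TATA box with the letters TATAAA, the CCAAT box, named for its letters, and the GC box with the letters GGGCGG. For Col4a5 the 34 bases nearest the start are left out because GENCODE vM21 places an exon there.
Col4a5 (chrX:141475169-141475384, plus strand): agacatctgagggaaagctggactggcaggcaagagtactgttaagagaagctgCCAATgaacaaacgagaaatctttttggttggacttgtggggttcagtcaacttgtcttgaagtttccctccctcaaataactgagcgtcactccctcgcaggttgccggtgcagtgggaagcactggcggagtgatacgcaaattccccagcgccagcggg
Col4a6 (chrX:141474077-141474326, minus strand): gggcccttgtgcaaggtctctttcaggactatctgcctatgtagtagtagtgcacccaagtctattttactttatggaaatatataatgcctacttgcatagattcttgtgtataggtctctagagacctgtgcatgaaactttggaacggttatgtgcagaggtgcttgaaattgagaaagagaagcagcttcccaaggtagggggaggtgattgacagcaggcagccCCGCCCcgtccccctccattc
Within 250 bases before the start, Col4a5 had CCAAT beginning 196 bases and GGGCGG 30 bases before the start, the last one in the part not printed. Col4a6 had GGGCGG on the opposite strand 21 bases before its start, and neither had TATAAA. Of 32851 RefSeq windows of this length, 32.7% held GGGCGG, 33.8% CCAAT and 12.4% TATAAA on either strand. The promoter table had 33 of the 40 members, with 36 windows, of which 21 held GGGCGG, 12 CCAAT and 5 TATAAA.

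Within the epithelial-like class the collagens divided by cluster. The cluster led by Krt5 and Krt14, keratins of basal mammary cells, was the highest for the hemidesmosome collagen Col17a1 (0.529 ± 0.147, SD, n = 5) and the anchoring fibril collagen Col7a1 (1.35 ± 0.221). The next clusters were at 0.00438 for Col17a1 and 0.0587 for Col7a1. The same cluster was highest for Col16a1 (3.87 ± 1.07), Col18a1 (1.04 ± 0.0873), Col4a5 (1.07 ± 0.332), Col4a6 (0.452 ± 0.0875), Col9a2 (2.85 ± 0.874) and Col9a3 (2.44 ± 1.10). Over the whole epithelial-like class, Col17a1 stood at 0.0265, 0.0173, 0.0212, 0.00882 and 0.00863, and Col16a1 at 0.558, 0.442, 0.753, 0.845 and 0.666. The fibroblast-like means of Col7a1 (0.264 ± 0.237, SD, n = 5) and Col16a1 (1.68 ± 0.122) were below those of the Krt5 and Krt14 cluster. Col9a1 was distributed differently, with its highest levels in the cluster led by 2610528A11Rik and Tspan1 (5.97 ± 1.49) and the one led by Scgb1b27 and Car6 (5.21 ± 2.02). Col11a1 was highest in the cluster led by the interferon-response genes Ifit1 and Isg15 (2.95 ± 0.658), as was Col27a1 (1.49 ± 1.17). A small cluster led by Tph1 and Cited1 was lowest for Col9a1 (0.333 ± 0.215, n = 3), Col9a2 (0.198 ± 0.113) and Col9a3 (0.0604 ± 0.0594). Clusters come from these same cells, so these are descriptions with no test.

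**Figure D3:**
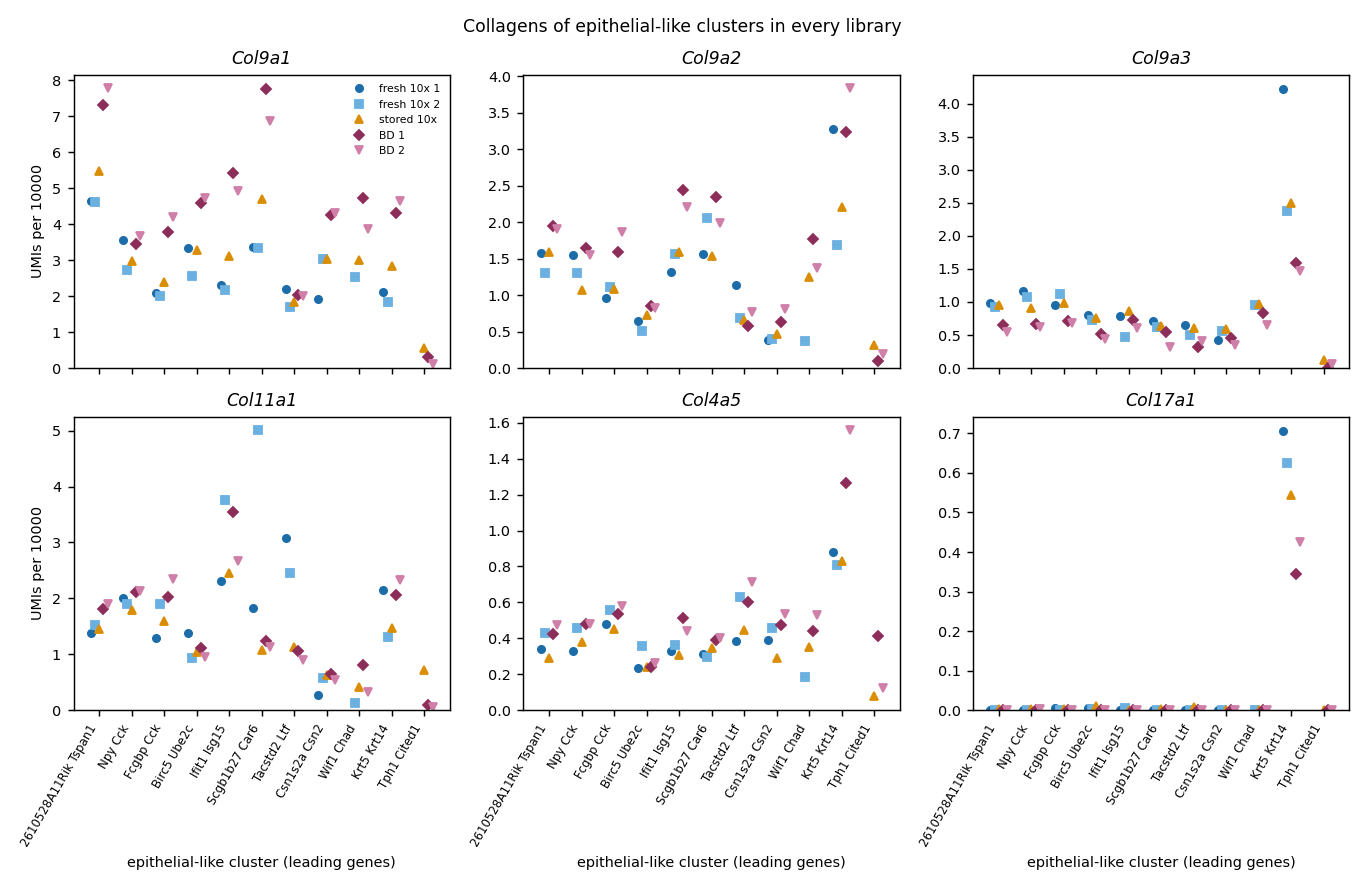
Level of 6 collagen genes in each epithelial-like cluster, named by its leading genes, in UMIs per 10000. Each point is 1 library with at least 10 cells of the cluster. Col17a1 is at or near 0 outside the Krt5 and Krt14 cluster, Col9a2, Col9a3 and Col4a5 peak there, and Col9a1 peaks in the clusters led by 2610528A11Rik and Tspan1 and by Scgb1b27 and Car6.

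A few members were carried by very few cells. Col2a1, the main fibrillar collagen of cartilage, had 1061 UMIs in 127 cells, and the 10 richest cells held 59.8% of them. The richest was an epithelial-like cell of fresh 10x 2 with 214 Col2a1 UMIs, 151 of Col11a1, 147 of the chondrogenic factor Sox9, 34 of the cartilage gene Cnmd and 78 of Epcam, an epithelial marker. That cell also had 13 UMIs of the cartilage gene Hapln1, but no UMI of the cartilage genes Acan, Matn3, Chad and Snorc or of Col11a2. In BD 2 a cell of the fibroblast-like class had 94 Col2a1 UMIs, 129 of Col9a1, 73 of Col11a1 and 37 of Col11a2, and another had 26, 73, 20 and 24. Neither had a UMI of the fibroblast markers Dcn or Lum. They had 25 and 11 UMIs of Cnmd, but only 1 of Sox9 each and none of Acan or Matn3. Sox9, Cnmd and the other genes named for these cells were chosen after their values were seen. These 2 cells lay in a fibroblast cluster led by Meg3, whose 6 cells in BD 2 held 209 of the 329 Col9a1 UMIs of its fibroblast-like class, so the Col9a1 level of 0.875 there is set mostly by them. In epithelial-like cells Col2a1 stood at 0.111, 0.129, 0.0362, 0.0142 and 0.0217, and in fibroblast-like cells it was 0.325 in BD 2 and at most 0.0376 elsewhere. Col11a2 had 67 UMIs in fibroblast-like cells of BD 2 and at most 10 in those of any other library. In epithelial-like cells Col11a2 stood at 0.00630, 0.00985, 0.00499, 0.0114 and 0.0131. Col10a1, the collagen of hypertrophic cartilage, had 472 UMIs, of which 406 were in 1 fibroblast-like cell of BD 1, or 96.9% of the 419 in that library. In fibroblast-like cells its level was 0.0190, 0.0463, 0.0751, 0.613 and 0. Col4a4, a further basement membrane chain with 561 UMIs, stood at 0.0168, 0.0217, 0.0204, 0.0320 and 0.0345 in epithelial-like cells and at 0.0152 to 0.0414 in fibroblast-like cells. Col20a1 was under 0.01 in epithelial-like and in fibroblast-like cells of every library.

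The fibroblast-like cells fell into 3 clusters with different collagens. A cluster led by Efemp1 and Clec3b is called the Efemp1 type, and a cluster led by Lrrc15, Spon1 and Cilp is called the Cilp type. The remaining one, the Meg3 type, had 73 cells, a low median UMI count of 0.175 of its libraries' medians and UMIs of 3 of the 8 epithelial markers in 50% or more of its cells, so it was left out of the comparison. Cells of the Cilp type were 79.5%, 64.6%, 27.1%, 32.1% and 27.7% of the fibroblast-like cells and cells of the Efemp1 type 15.6%, 29.9%, 59.7%, 67.3% and 69.8%. The fresh 10x libraries were thus mostly of the Cilp type and the other 3 mostly of the Efemp1 type. Of the marker lists, Cilp, Tnc and Postn were higher in the Cilp type in 5 of 5 libraries, but Fn1 was lower in 5 of 5 (mean log2 difference -0.91 ± 0.25, SD) and Cthrc1 higher in 3 of 5.

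Among the 26 members with at least 200 UMIs in the 2 types together, 14 were higher in the Cilp type in 5 of 5 libraries and 2 were lower in 5 of 5. Clusters come from the same cells, so this is a description, although no collagen entered the clustering. The same count was not made over all genes, so it does not tell whether collagens differed more often than other genes. Among the 14, the largest differences were for Col11a1, with a mean log2 difference of 4.68 ± 1.5 (SD, n = 5), Col7a1 (4.08 ± 0.14), Col8a1 (3.14 ± 0.22) and Col12a1 (2.20 ± 0.27). Col11a1 stood at 2.40, 3.13, 1.44, 2.57 and 1.65 in the Cilp type and at 0.0243, 0.0828, 0.238, 0.0827 and 0.103 in the Efemp1 type. Col12a1 stood at 19.5, 24.4, 7.66, 11.0 and 9.56 in the Cilp type and at 3.98, 3.99, 1.71, 2.64 and 2.60 in the Efemp1 type, and in both types the fresh 10x libraries were highest. All 3 major chains of type VI were higher in the Cilp type, by 1.27 ± 0.26 for Col6a1, 1.31 ± 0.28 for Col6a2 and 1.28 ± 0.18 for Col6a3. Col1a1 (0.97 ± 0.23), Col1a2 (0.75 ± 0.24), Col5a2 (0.84 ± 0.16), Col5a1 (0.59 ± 0.22), Col15a1 (1.33 ± 0.44), Col27a1 (1.13 ± 0.27) and Col16a1 (0.40 ± 0.29) were also higher in 5 of 5. Col8a2 (5.43 ± 1.42) was higher in all 4 libraries in which both types had a UMI.

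Type III collagen did not follow type I. Col3a1 stood at 152, 130, 168, 197 and 190 in the Cilp type and at 252, 222, 187, 210 and 189 in the Efemp1 type, a mean log2 difference of -0.35 ± 0.37, with the Efemp1 type higher in 4 of 5 libraries. The excess was clear in both fresh 10x libraries and small in the others. Col14a1 (-0.92 ± 0.28) and Col28a1 (-3.71 ± 1.09) were higher in the Efemp1 type in 5 of 5. Col14a1 stood at 4.68, 5.75, 5.81, 11.6 and 9.56 in the Cilp type and at 11.4, 12.4, 10.8, 17.5 and 15.5 in the Efemp1 type. Col6a6 (-1.82 ± 0.34) was higher in the Efemp1 type in the 4 libraries in which both types had a UMI. The basement membrane genes Col4a1 (-0.03 ± 0.38) and Col4a2 (0.27 ± 0.37) differed by less than their spread over libraries.

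**Figure D4:**
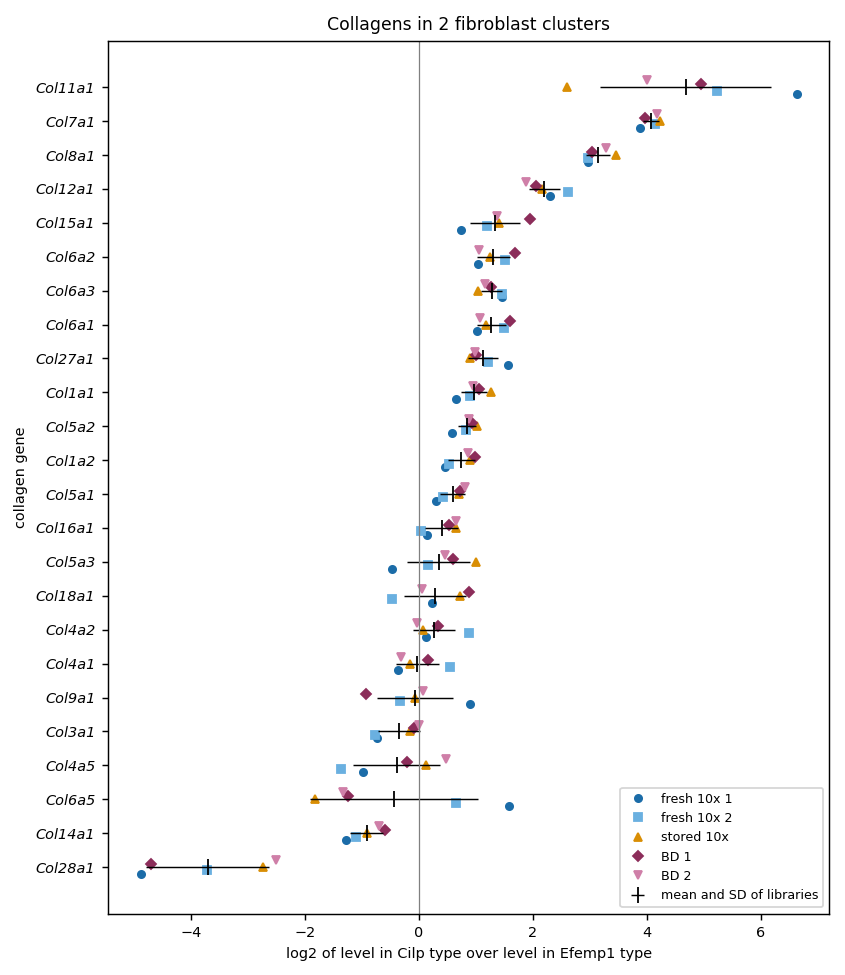
Log2 of the level in the Cilp type over the level in the Efemp1 type for 24 collagen genes with a UMI in both types in every library and at least 200 UMIs in the types together. Points are libraries, and black marks with bars are the mean and SD of the 5. Col11a1, Col7a1, Col8a1 and Col12a1 lie farthest to the right in every library, Col14a1 and Col28a1 lie left of 0 in every library, and Col3a1 lies at -0.74 and -0.77 in the fresh 10x libraries and closer to 0 in the others.

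The genes that fold, modify, trim and cross-link collagens were described from a list of 42. Of the 37 with a value in both types in every library, 16 were higher in the Cilp type in 5 of 5 and 4 in the Efemp1 type in 5 of 5. Of the 19 genes for chaperones and modifying enzymes, 10 were higher in the Cilp type in 5 of 5 and none in the Efemp1 type, with a median log2 difference of 0.43. These counts have no share over all genes beside them, so they do not set the list apart from other genes. The 10 higher in the Cilp type included the collagen chaperone Serpinh1 (mean log2 difference 0.43 ± 0.15) and the prolyl hydroxylase subunit P4ha3 (0.85 ± 0.29). The lysyl hydroxylase Plod2 (0.80 ± 0.36) and the peptidyl-prolyl isomerase Fkbp10 (0.75 ± 0.25) were also among them. The collagen-binding glycoprotein Sparc (0.70 ± 0.25) and the cross-linking enzyme Loxl3 (1.46 ± 0.55) were higher too. The collagen receptors divided, with Itga1 (3.26 ± 0.14), Itga10 (2.72 ± 0.96) and the uptake receptor Mrc2 (1.23 ± 0.17) higher in the Cilp type and the discoidin receptor Ddr2 (-1.44 ± 0.24) higher in the Efemp1 type. Pcolce2, an enhancer of propeptide cleavage, was higher in the Efemp1 type (-3.89 ± 0.21), as was the cross-linking enzyme Loxl4 (-2.40 ± 0.92), while Pcolce (-0.15 ± 0.16) differed by less than its spread.

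Storage was tested as stored 10x against fresh 10x, with edgeR's quasi-likelihood test over all genes and Benjamini-Hochberg adjustment at 0.05. In fibroblast-like cells 16 of the 37 collagens tested were called, 7 higher and 9 lower in stored 10x, or 43.2%, against 8.39% of all 12255 genes tested (4.71% higher and 3.68% lower). The median log2 change of the members was -0.15, beside 0.00 over all genes. In these sums, fewer cells of a type and less RNA per cell cannot be told apart for a gene carried by part of the cells. The lower genes were led by Col12a1 (log2 fold change -2.23 ± 0.18 SE, adjusted p = 0.000188), Col7a1 (-2.24 ± 0.31, adjusted p = 0.00338), Col8a2 (-1.78 ± 0.18, adjusted p = 0.000957) and Col11a1 (-1.58 ± 0.17, adjusted p = 0.00116). Col1a1 fell by 0.99 (SE 0.14, adjusted p = 0.0034), Col8a1 by 0.76, Col5a2 by 0.66, Col1a2 by 0.52 and Col23a1 by 1.79, while Col3a1 was at 0.10 and was not called. Among the higher genes, Col9a1 (3.02 ± 0.28), Col9a2 (3.66 ± 0.43), Col9a3 (2.04 ± 0.42) and Col2a1 (3.92 ± 0.94) were the collagens led by the epithelium or by single cells. The epithelial markers summed over fibroblast-like cells stood at 8.22 in stored 10x against 1.41 and 1.24 in the fresh 10x libraries, and their part in these calls was not tested. Col2a1 rested on 15 UMIs in stored 10x against 1 and 0, and leaving out fresh 10x 1 moved it to 7.01. Col18a1 (0.80 ± 0.18), Col28a1 (1.65 ± 0.35) and Col6a6 (1.88 ± 0.46) also rose.

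The mix of fibroblast types moved with this comparison, since the Cilp type was 79.5% and 64.6% of fibroblast-like cells in fresh 10x and 27.1% in stored 10x. Within the Efemp1 type alone no collagen of 31 was called in the same test, against 0.277% of all genes. An unadjusted p under 0.05 was reached by 9 of the 31, and the share of all genes at that limit was not computed. Within the Cilp type alone none of 31 was called either, against 0.388% of all genes. There 13 of the 31 had an unadjusted p under 0.05, again with no share of all genes at that limit. Col12a1 was at -1.23 ± 0.23 (adjusted p = 0.122) in the Efemp1 type and at -1.54 ± 0.17 (adjusted p = 0.0624) in the Cilp type. Col1a1 was at -0.93 ± 0.18 (adjusted p = 0.13) in the Efemp1 type and at -0.44 ± 0.07 (adjusted p = 0.0935) in the Cilp type. Col11a1 changed sign between the types, at 2.01 ± 0.62 in the Efemp1 type and -0.95 ± 0.21 in the Cilp type, as did Col8a1, at -0.28 ± 0.24 and 0.20 ± 0.12. The fresh Efemp1 type is small, at 32 and 38 cells.

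**Figure D5:**
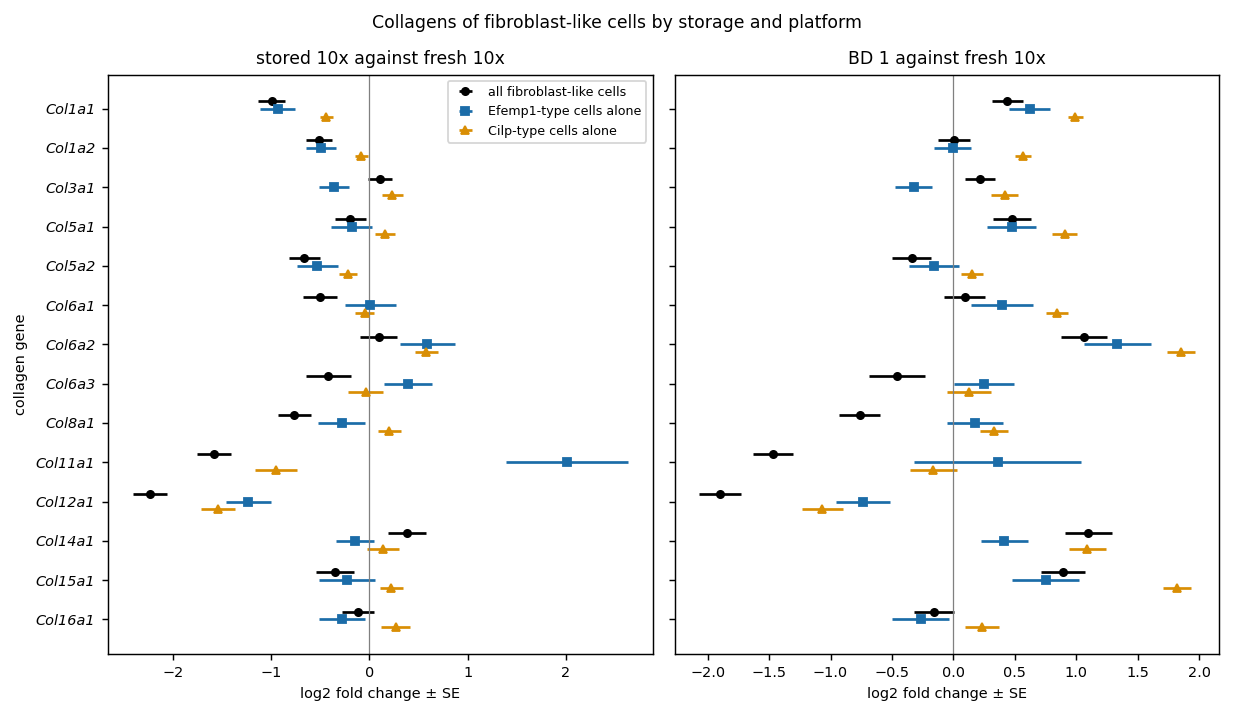
Log2 fold change ± SE of 14 collagen genes in fibroblast-like cells for stored 10x (left) and BD 1 (right) against fresh 10x, over all fibroblast-like cells (black circles) and within the Efemp1 type (blue squares) and the Cilp type (orange triangles) alone. For storage, Col12a1 lies between -2.23 and -1.23 in each set of cells and Col1a1 between -0.99 and -0.44, while Col8a1 and Col11a1 cross 0 between types. For platform, Col6a2 lies above 1 in each set of cells.

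Outside fibroblasts, storage called fewer collagens with edgeR. In epithelial-like cells 1 of 33 was called, against 0.671% of all 15498 genes. It was Col2a1 (-1.71 ± 0.24, adjusted p = 0.0419), of which a single cell held 214 of the 328 UMIs of fresh 10x 2. Col9a1, Col11a1 and Col4a5 were not called. In endothelial-like cells 3 of 19 were called, or 15.8%, against 1.18% of all 8403 genes, and all rose: Col3a1 (2.55 ± 0.20, adjusted p = 4.29e-05), Col1a2 (2.12 ± 0.24) and Col1a1 (1.84 ± 0.25). The median log2 change of the members tested there was 1.11, beside -0.02 over all genes. Col3a1 stood at 4.13 in endothelial-like cells of stored 10x against 0.639 and 0.825 in fresh 10x. In the same cells the 7 fibroblast markers summed to 1.99 in stored 10x against 0.196 and 0.217 in fresh 10x, and their part in these calls was not tested. Over whole libraries none of the 40 members was called with edgeR, against 0.147% of all 16973 genes. An unadjusted p under 0.05 was reached by 17 members, and the share of all genes at that limit was not computed. DESeq2 called 5, all lower, against 2.32% of all genes.

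The platform was tested as BD 1 against fresh 10x, so it shares its controls with the storage comparison. In fibroblast-like cells 21 of 37 collagens were called, 14 higher and 7 lower in BD 1, or 56.8%, against 40% of all 12255 genes (19.6% higher and 20.4% lower), and the median log2 change of the members was 0.09 beside 0.02 over all genes. Col12a1 (-1.90 ± 0.17, adjusted p = 7.75e-05), Col7a1 (-2.42 ± 0.29), Col11a1 (-1.47 ± 0.16) and Col8a1 (-0.76 ± 0.17) were lower. All of them were higher in the Cilp type, which was 32.1% of fibroblast-like cells in BD 1. Of the genes higher in BD 1, Col6a2, Col15a1, Col5a1 and Col1a1 were also higher in the Cilp type. The part of the type mix in these calls was not tested. Col6a2 (1.06 ± 0.19, adjusted p = 0.00197), Col14a1 (1.10 ± 0.19), Col4a1 (1.03 ± 0.15), Col18a1 (0.95 ± 0.17), Col15a1 (0.89 ± 0.18), Col5a3 (0.82 ± 0.17), Col4a2 (0.68 ± 0.17), Col5a1 (0.47 ± 0.15) and Col1a1 (0.44 ± 0.13) were higher. Among the scarcer genes Col28a1 (1.95 ± 0.32) and Col6a6 (2.33 ± 0.41) were higher, as were Col9a1 (1.69 ± 0.30) and Col9a2 (2.33 ± 0.46), with summed epithelial markers at 2.46 against 1.41 and 1.24. The call for Col10a1 (4.18 ± 0.33) rests on the cell with 406 UMIs. Col24a1 (-3.13 ± 0.66), Col23a1 (-1.59 ± 0.36) and Col26a1 (-1.26 ± 0.41), each with fewer than 200 UMIs, were lower.

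Within the Cilp type alone 16 of 31 collagens were called, 14 higher and 2 lower in BD 1, against 25.5% of all genes (11.8% higher and 13.8% lower). Within the Efemp1 type alone 1 of 31 was called, Col6a2 (1.33 ± 0.28, adjusted p = 0.0199), against 11.4% of all genes. In the Cilp type Col6a2 (1.85 ± 0.11), Col15a1 (1.82 ± 0.11), Col18a1 (1.62 ± 0.14), Col1a1 (0.99 ± 0.06) and Col6a1 (0.84 ± 0.09) were higher and Col12a1 (-1.07 ± 0.17) and Col7a1 (-1.20 ± 0.23) lower. Col8a1, lower over all fibroblast-like cells, was at 0.33 ± 0.11 in the Cilp type and at 0.18 ± 0.23 in the Efemp1 type, neither called. Col11a1 was at -0.16 ± 0.19 and 0.36 ± 0.68, also not called.

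In epithelial-like cells 10 of 33 collagens were called by platform, 5 higher and 5 lower, or 30.3%, against 41.1% of all 15498 genes (20.8% higher and 20.3% lower). Col9a1 rose (0.57 ± 0.11, adjusted p = 0.00764) and Col9a3 fell by 0.67 (SE 0.12, adjusted p = 0.0061), so genes for chains of the same collagen moved in opposite directions. Col16a1 rose (0.60 ± 0.16), and Col2a1 (-3.23 ± 0.27), Col17a1 (-1.46 ± 0.47), Col25a1 (-1.01 ± 0.26) and Col12a1 (-0.85 ± 0.18) fell. The Krt5 and Krt14 cluster, which led Col17a1, had 96 of 1370 and 59 of 1361 epithelial-like cells in fresh 10x and 89 of 2612 in BD 1. That cluster was also the highest for Col9a3, which fell, and for Col16a1, which rose, and its part in these calls was not tested. The fibroblast genes Col1a1 (0.90 ± 0.18), Col3a1 (0.87 ± 0.19) and Col14a1 (1.09 ± 0.34) rose from levels of the order seen in T-like cells. Without the cells that had a fibroblast marker UMI these 3 were still called, at 0.97, 1.00 and 1.37, while Col2a1 (-3.68 ± 1.28), Col17a1 (-0.70 ± 0.76) and Col12a1 (-0.45 ± 0.21) were not. The Col2a1 fold was as large there as over all epithelial-like cells, with a larger SE. In endothelial-like cells 3 of 19 were called, all higher in BD 1, against 17.7% of all 8403 genes: Col15a1 (1.63 ± 0.17, adjusted p = 0.000153), Col8a1 (2.00 ± 0.58) and Col9a1 (2.13 ± 0.55). Without fresh 10x 1 the last 2 stood at 1.27 and 1.37, and without fresh 10x 2 Col8a1 stood at 3.01. In whole libraries 17 of 40 members were called, 9 higher and 8 lower, or 42.5%, against 38.7% of all 16973 genes (20.1% higher and 18.6% lower). Col13a1 (-1.99 ± 0.51), Col18a1 (-0.90 ± 0.17) and Col4a2 (-0.65 ± 0.18) were among the lower ones, and endothelial-like cells were 1.34% of the named cells of BD 1 against 8.77% and 5.61% in fresh 10x. Col14a1 rose most clearly (1.65 ± 0.09, adjusted p = 0.00161).

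Of the 42 processing genes, 38 were tested in fibroblast-like cells, and 8 were higher and 10 lower in BD 1, with 3 higher and 8 lower in stored 10x. Over all genes tested in these cells, 19.6% were higher and 20.4% lower in BD 1, and 4.71% were higher and 3.68% lower in stored 10x. Ppib, a peptidyl-prolyl isomerase of the collagen prolyl 3-hydroxylation complex, fell in BD 1 in fibroblast-like (-2.10 ± 0.17, adjusted p = 5e-05), epithelial-like (-1.79 ± 0.13) and endothelial-like cells (-1.49 ± 0.20), while Crtap of the same complex rose in all 3 (0.97 ± 0.16, 1.12 ± 0.14 and 1.58 ± 0.27). In stored 10x the lower genes were Itga1 (-1.57 ± 0.24), Loxl3 (-1.01 ± 0.16), Lox (-0.83 ± 0.17), Fkbp14 (-0.83 ± 0.18), Ppib (-0.70 ± 0.16), Mrc2 (-0.66 ± 0.17), P4ha2 (-0.61 ± 0.16) and Sparc (-0.59 ± 0.14). Ddr2 (1.01 ± 0.20), Pcolce2 (1.60 ± 0.35) and Itga2 (4.47 ± 0.92) rose. Itga1, Loxl3, Mrc2 and Sparc were higher in the Cilp type and Ddr2 and Pcolce2 in the Efemp1 type, and these shares of types differed between the libraries as given above. Lox, Fkbp14, Ppib, P4ha2 and Itga2 are not placed by type here, and the part of the type mix in the calls was not tested. In epithelial-like cells no gene of the list was called by storage with edgeR.

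The libraries BD 1 and BD 2, which were not tested against each other, are given side by side. In fibroblast-like cells Col1a1 stood at 190 and 194, Col1a2 at 151 and 154, Col6a1 at 22.3 and 22.3, and Col12a1 at 5.10 and 4.41. In epithelial-like cells Col9a1 stood at 4.92 and 5.06 and Col4a5 at 0.446 and 0.468. The genes carried by few cells differed more, with fibroblast-like Col10a1 at 0.613 and 0, Col9a1 at 0.185 and 0.875 and Col2a1 at 0 and 0.325.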

How the data were processed

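Single-cell RNA sequencing of 5 PyMT tumour libraries was used. The authors deposited matrices of raw UMI counts per gene and cell, and per the submitters' processing notes Cell Ranger 3.0.1 and mm10 were used, with the role of each not stated. Totals per library were 29166129 to 59957945 UMIs. Spellings of a symbol were merged. Cells with at least 200 genes were clustered without collagen genes (scanpy 1.11.5, 2000 variable genes, 30 components, 15 neighbours, Leiden resolution 1.0, igraph 0.11.9), giving 24 clusters named from fixed markers. Scrublet marked 36 cells, too few to count as working, and other doublets remain. UMIs were summed per class and library. Tests used edgeR 4.0.16 (TMM, filterByExpr, quasi-likelihood) over all 5 libraries in 4 groups with 1 residual degree of freedom, so lone libraries are assumed to vary like the fresh 10x pair. DESeq2 1.42.0 (R 4.3.3), other scaling and filters, leaving out each fresh 10x library and grouping BD 2 by its title were alternatives. Fits within a fibroblast type, without BD 2 and in epithelial-like cells with no fibroblast marker UMI were added after seeing the data. The edgeR step was checked on simulated counts. Intervals cover counting error only. The 14 members with the most UMIs, called members with at least 200 UMIs and members not led by fibroblast-like cells were named. Members and lists were chosen with earlier results of these data known. Protein sequences were not used here.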

Additional observations from a re-analysis of the deposited data

How the results depend on the processing

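The counts of called collagens depended on the processing more than the directions did. The share of all genes called in the same fit is given in brackets. Over whole libraries the platform count of 17 (38.7%) became 10 with no filter on low counts (21.5%). The storage count of 0 (0.147%) became 5 with DESeq2 (2.32%) and 1 with DESeq2 size factors (0.395%). In fibroblast-like cells DESeq2 called 8 by platform (11%) and 7 by storage (1.89%). The Efemp1 type alone gave 1 (11.4%) and 0 (0.277%), and the Cilp type alone gave 0 by storage (0.388%). In epithelial-like cells the platform count of 10 (41.1%) became 6 with DESeq2 (27.2%) and 16 with BD 2 grouped by its title (55.5%). There the storage count of 1 (0.671%) became 2 with DESeq2 (0.927%), DESeq2 size factors (1.74%) or no filter (0.995%). It was also 2 without BD 2 (1.02%) or at resolution 2.0 (1.71%). Without cells holding a fibroblast marker UMI it was 0 (0.057%), and Col2a1 there was at -1.65 ± 1.09 (SE) against -1.71 ± 0.24. In endothelial-like cells the platform count of 3 (17.7%) became 1 with DESeq2 (17%) or its size factors (7.13%) and 5 without BD 2 (23.8%). The storage count of 3 (1.18%) became 0 with DESeq2 (0.947%) or its size factors (0.0833%). It became 5 with no filter (1.69%) or without BD 2 (3.74%). The cause was not tested.

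With BD 2 grouped by its title, the replicate number could enter as a replicate block. By platform this fit called 29 collagens in whole libraries, or 72.5%, against 60.5% of all genes. In epithelial-like cells it called 17, or 53.1%, against 58.2% of all genes. The numbers share no stated source, and the correlation of same-numbered deviations was 0.245.

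Of the 71 named gene results, changes of test, filter, scaling or cells left 472 values on the same side of the threshold, weakened 106 and turned 7. The 7 were platform in fibroblast-like cells for Col11a1 (0.36) and Col8a1 (0.18) in the Efemp1 type and Col8a1 (0.33) and Col26a1 (0.05) in the Cilp type, and storage for Col11a1 (2.01) and Col8a2 (0.96) in the Efemp1 type and Col8a1 (0.20) in the Cilp type. Leaving out either fresh 10x library left no residual degrees of freedom, so it gave values with no test. Of these values, 102 stayed within the limit set for a change, 40 moved beyond it and none changed sign. The types rest on 32 to 226 cells of the Efemp1 type and 65 to 163 of the Cilp type a library, and mural-like and BD 2 endothelial-like values rest on few cells.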

Other observations

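A pooled matrix of 4000 fresh 10x cells was also deposited, of which 2518 were in neither library's own matrix. In those other cells collagens were 0.577% of the UMIs, beside 0.653% in fresh 10x 1 and 0.468% in fresh 10x 2. Over all their cell types, Col3a1 stood at 14.3 UMIs per 10000, Col1a1 at 10.4, Col9a1 at 2.49 and Col4a1 at 2.26.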
